A study of Mus musculus with 9 samples.

Results

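The genes described here are 10 members of the bone morphogenetic protein (BMP) pathway and its feedback loop, namely Id1, Id2, Id3, Id4, Smad6, Smad7, Smad9, Bambi, Bmp4 and Bmpr1a. They were picked by symbol out of 54532 gene IDs, and all 10 were found. They were chosen by differences between these same groups that were already known, so their values are given as a description, without p-values. RNA-seq covered 9 libraries of HT22, an immortalized mouse hippocampal cell line of wild-type genotype, in 3 groups of 3. OGE cells were deprived of oxygen and glucose for 2 h and then reoxygenated for 24 h with extracellular vesicles of mesenchymal stem cells that had been derived from human induced pluripotent stem cells (hiPS-MSC-EVs). OGP cells, called OGD in the study's text, had the same deprivation and reoxygenation with PBS in place of vesicles, and control cells had neither. Several vesicle doses were used in the study's cell assays, and which of them the sequenced cells had is not given. The sources disagree on the serum in the medium after deprivation, so whether OGE and OGP cells had the same serum is not known. The study's methods also give the deprivation medium as free of serum, while the standard medium held it. Loss of oxygen, glucose and serum thus cannot be told apart where OGE or OGP is set against control. The study's text speaks of biological replicates without saying what separates the 3 libraries of a group, and errors and p-values reflect only how these libraries vary.

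BMP ligands such as BMP4 are secreted and bind a pair of serine/threonine kinase receptors, in which a type II receptor activates a type I receptor such as BMPR1A. The type I receptor phosphorylates SMAD1, SMAD5 and SMAD9 (also called SMAD8), which join SMAD4 and move to the nucleus. The Id genes are among the best known direct targets. Their products are helix-loop-helix proteins without the basic region that contacts DNA, and they hold E proteins away from DNA and thereby delay differentiation, including that of neural precursors. Smad6 and Smad7, which encode inhibitory SMADs, and Bambi, which encodes a receptor decoy without a kinase domain, are induced by the pathway and dampen it.

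Levels are FPKM, the fragments per kilobase of gene length scaled to a library's depth, so that levels of different genes can be set side by side. The FPKM imply 15026700 to 19476806 reads in genes per library. Pearson's r of log2 levels between libraries of a group was 0.979 to 0.988 in OGE, 0.985 to 0.986 in OGP and 0.969 to 0.987 in control, and 0.949 to 0.970 between groups. Control replicate 1 lay farthest from its group, with r of 0.969 and 0.974 to the other control libraries, and results that turn on it are given with and without it. Mitochondrial transcripts took 2.58% ± 0.479 of reads in OGE, 2.90% ± 0.406 in OGP and 1.62% ± 0.620 in control (SD, n = 3 each). Of 6 neuron markers, Tubb3 and Map2 were above 1 FPKM on average, while Rbfox3, Syp, Snap25 and Nefl, which mark mature neurons, averaged at most 0.0309 FPKM. The neuron markers summed to 13.5 to 17.6 FPKM in OGE, 12.4 to 13.4 in OGP and 7.90 to 10.4 in control. The only astrocyte marker of 5 above 1 FPKM was the glutamate transporter gene Slc1a3, and that list summed to 2.75 to 3.28 FPKM in OGE, 4.11 to 5.68 in OGP and 9.32 to 11.1 in control. Of 6 mesenchymal stem cell markers 3 were above 1 FPKM and Thy1, Lum and Dcn averaged at most 0.110 FPKM, and the list summed to 354 to 417 FPKM in OGE, 363 to 431 in OGP and 630 to 944 in control. That sum is nearly all Col1a1, which averaged 369 FPKM in OGE, 383 in OGP and 777 in control, while Nt5e averaged 4.57 FPKM in OGE, 1.66 in OGP and 1.29 in control, Pdgfrb 7.31 in OGE, 6.99 in OGP and 7.24 in control, and Dcn 0.124 in OGE, 0.200 in OGP and 0.00614 in control. The microglia list had 1 of 5 genes above 1 FPKM, Tmem119, and summed to 9.02 to 10.2 FPKM in OGE, 16.5 to 19.0 in OGP and 12.2 to 17.4 in control, while the endothelial and oligodendrocyte lists had none of 5 and none of 4. Slc1a3 and Col1a1 were thus lower in OGE and OGP than in control, as were the ID genes, while Nt5e and Dcn were higher and Pdgfrb differed little, and the microglia sum was lowest in OGE, as was Bmp4, and their part in the differences was not tested. In RNA of a whole culture, fewer cells with a transcript and fewer transcripts per cell cannot be told apart.

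Because the pathway acts on its targets through SMAD-binding DNA, the stretch of 250 bases before each gene's RefSeq start (mouse, GRCm38.p6) was taken. It was searched on both strands for 3 motifs, GGCGCC and GGAGCC, which occur in BMP response elements, and CAGAC, the SMAD-binding element. Distances below are from the RefSeq start, which can differ from the start in the gene coordinates given with the levels. An entry was found for 7 of the 10 genes. Id1, Smad7 and Bambi had none, so they were not searched. The windows of Id3, Id2 and Bmpr1a lie inside those gene coordinates, with 250, 161 and 141 of their bases in annotated exons. GGCGCC was present in 4 of the 7 (Id2, Id4, Smad9 and Bmpr1a), against 9.59% of the 32851 windows in the table. GGAGCC was present in 6 of the 7 (all but Bmpr1a), against 26.0% of all windows, and CAGAC only in the window of Id3, against 42.2% of all windows. The windows of the 7 genes held 62.8% to 78.8% G and C, and the GGCGCC and GGAGCC motifs are themselves GC-rich. A match says only that these letters are there. The sequences shown are those of genes that the differences below turn on and that had an entry, which leaves out Id1. They have the motif in capitals and are on the strand of the gene from 5′ to 3′, so that a match on the other strand reads as GGCTCC or GTCTG. For Id3 (plus strand), whose window lies within annotated exons, the matches with 12 bases on each side are at chr4:136143623-136143652, chr4:136143643-136143671 and chr4:136143742-136143770. For Id2 (minus strand) they are at chr12:25096306-25096335 and chr12:25096163-25096192.
Id3, 187 bases before the start: cctcgcatccgaGGCTCCgctgtcctcggc
Id3, 167 bases before the start: tgtcctcggcgtCAGACcagcctaaggaa
Id3, 68 bases before the start: ggacccttggcgGTCTGttttgaataagg
Id2, 231 bases before the start: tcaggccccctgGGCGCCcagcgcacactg
Id2, 88 bases before the start: gtatgatggacgGGAGCCcttccaccaatg

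The windows of Smad6 (chr9:64022060-64022309, minus strand), Smad9 (chr3:54755332-54755581, plus strand) and Bmp4 (chr14:46390670-46390919, minus strand) lie outside annotated exons and are shown whole, as examples of an inhibitor, a transducer and a ligand whose levels differed between groups. Smad6 has GGAGCC 102 and 18 bases before the start, Smad9 has GGCGCC 51 and GGAGCC 6 bases before it, and Bmp4 has GGAGCC 32 bases before it.
Smad6: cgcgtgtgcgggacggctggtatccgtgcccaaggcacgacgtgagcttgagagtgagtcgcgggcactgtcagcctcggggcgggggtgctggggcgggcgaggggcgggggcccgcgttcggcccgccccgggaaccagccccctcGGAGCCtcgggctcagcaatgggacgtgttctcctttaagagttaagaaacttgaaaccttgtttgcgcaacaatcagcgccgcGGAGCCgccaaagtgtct
Smad9: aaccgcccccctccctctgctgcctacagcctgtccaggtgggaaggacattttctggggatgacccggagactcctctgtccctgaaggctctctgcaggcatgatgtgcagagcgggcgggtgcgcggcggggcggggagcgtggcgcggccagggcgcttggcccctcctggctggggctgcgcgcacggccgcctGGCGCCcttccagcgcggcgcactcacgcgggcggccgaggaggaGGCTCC
Bmp4: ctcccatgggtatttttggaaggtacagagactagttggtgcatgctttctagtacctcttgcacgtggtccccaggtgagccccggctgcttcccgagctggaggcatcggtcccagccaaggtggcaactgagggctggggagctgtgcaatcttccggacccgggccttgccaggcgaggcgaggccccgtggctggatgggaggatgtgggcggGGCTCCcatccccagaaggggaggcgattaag

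By mean level Id3, Id1 and Id2 were the highest of the 10 genes in control cells, and they stood several-fold lower in every OGP and OGE library. Id3 (ENSMUSG00000007872, chr4:136143497-136145755 in mm10) was the most abundant of them in control. It had 9.70, 10.9 and 13.1 FPKM in the OGE libraries, 15.3, 21.6 and 15.8 FPKM in the OGP libraries and 177, 275 and 239 FPKM in the control libraries. The highest OGP library was thus far below the lowest control library, and all 3 OGE libraries were below all OGP libraries. The means were 11.2 ± 1.72 FPKM in OGE, 17.5 ± 3.50 in OGP and 230.4 ± 49.5 in control (SD, n = 3 each), so that the control mean was 13.1 times the OGP mean. The log2 fold change of Id3 was -3.67 (SE 0.19) in OGP against control, the lowest but 3 of the 13245 genes tested, and -0.61 (SE 0.19) in OGE against OGP. Folds are those of FPKM + 0.5 on the log2 scale, which understates the change of low genes.

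Id1 (ENSMUSG00000042745, chr2:152736251-152737410), whose product is the founding member of the family, had 16.1, 13.6 and 17.7 FPKM in OGE, 9.84, 11.3 and 8.26 FPKM in OGP and 79.9, 104 and 103 FPKM in control. It was low in both deprived groups, but unlike Id3 its OGE libraries all lay above its OGP libraries. The means were 15.8 ± 2.03 FPKM in OGE, 9.81 ± 1.53 in OGP and 95.6 ± 13.6 in control. The log2 fold change was -3.22 (SE 0.15) in OGP against control, 0.67 (SE 0.15) in OGE against OGP and -2.56 (SE 0.15) in OGE against control. Vesicle-treated cells thus had 1.61 times the mean Id1 level of OGP cells, and OGE was still below control in every library.

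Id2 (ENSMUSG00000020644, chr12:25093799-25097140), which is also expressed in many differentiated neurons, had 4.05, 3.42 and 3.99 FPKM in OGE, 3.98, 5.31 and 5.19 FPKM in OGP and 33.4, 26.3 and 22.7 FPKM in control. Control was above both other groups in every library, whereas OGE and OGP overlapped. The log2 fold change of Id2 was -2.39 (SE 0.15) in OGP against control and -0.30 (SE 0.15) in OGE against OGP. Id4 (ENSMUSG00000021379, chr13:48261228-48266026), known for its role in neural stem cells and astrocyte precursors, was near the limit of detection, with 0.189, 0.123 and 0.0335 FPKM in OGE, 0.210, 0.143 and 0.128 FPKM in OGP and 0.431, 0.536 and 0.531 FPKM in control. These values rest on 23 reads over the OGE libraries, 33 over the OGP libraries and 102 over the control libraries. Id4 was thus lower in every OGP and OGE library than in any control library, but it was under the mean of 0.5 FPKM needed to enter the fit. Because the strand of the libraries is not given, reads of Id4 cannot be told apart from those of its antisense neighbours Gm49291 and A330033J07Rik, which were listed at no more than 0.0743 FPKM.

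**Figure D1:**
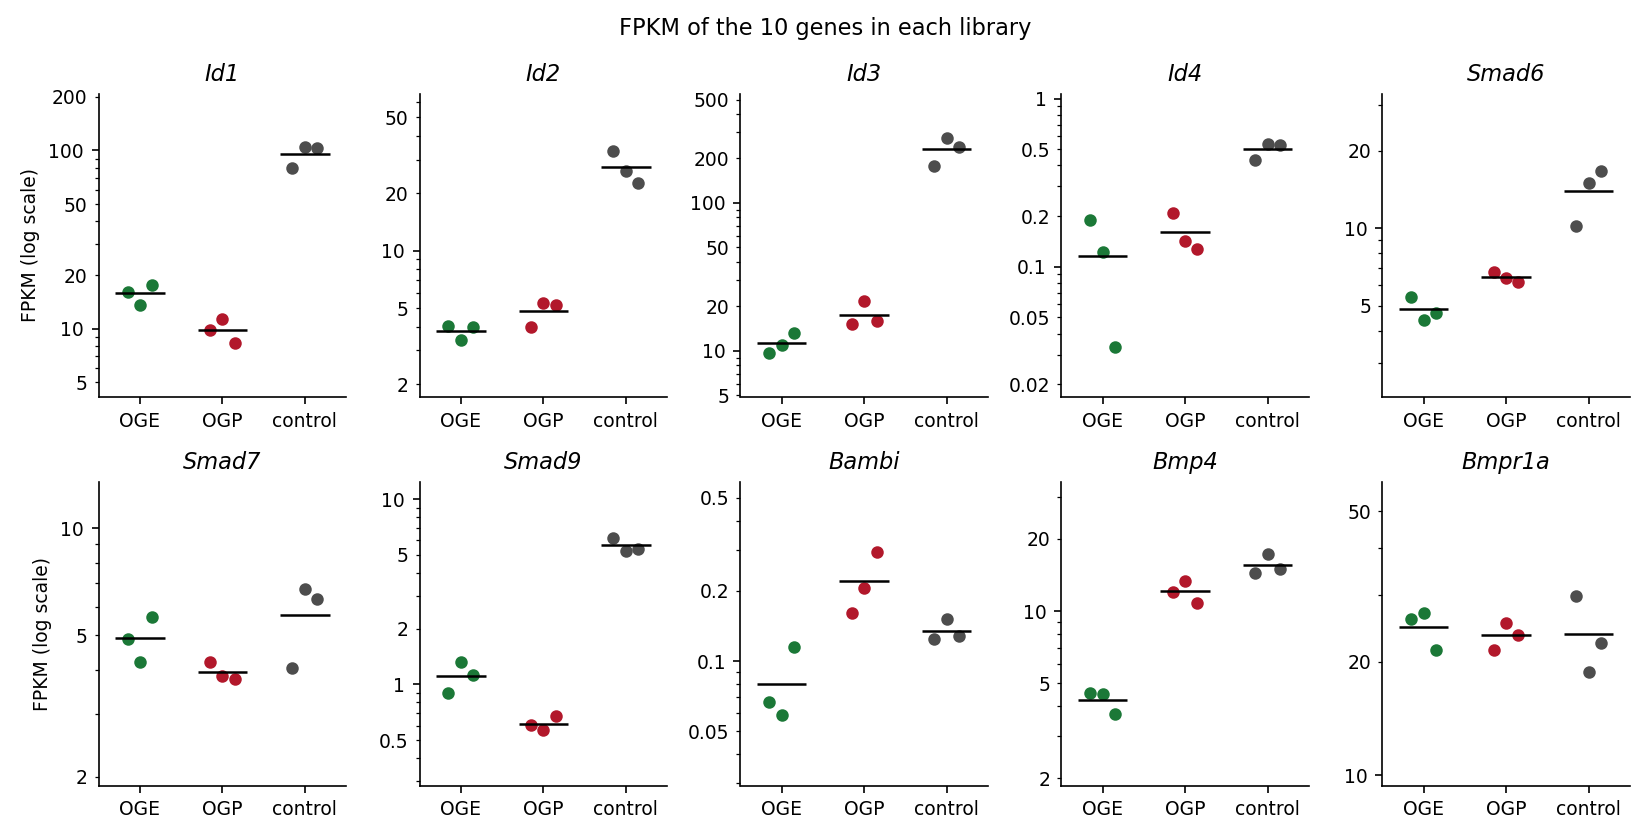
FPKM on a log scale of the 10 genes in each of the 9 libraries, with points for libraries 1 to 3 of a group from left to right and a line at the mean of the OGE, OGP and control libraries. Id1, Id2, Id3 and Smad9 show a control group far above both others, Bmp4 shows an OGE group far below both others, and the 3 groups of Smad7 and Bmpr1a overlap.

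Summed over the 4 ID genes, the level was 31.0 ± 3.44 FPKM in OGE, 32.3 ± 5.19 in OGP and 354 ± 58.4 in control (SD, n = 3 each). It ranged over 28.1 to 34.8 FPKM in OGE, 29.3 to 38.3 in OGP and 290.9 to 406 in control, so that OGE and OGP overlapped in the total but not in its make-up. Id1 gave 51.0% ± 2.56 of the sum in OGE, 30.4% ± 2.85 in OGP and 27.1% ± 1.30 in control, and Id3 gave 36.3% ± 3.51 in OGE, 54.1% ± 2.10 in OGP and 64.7% ± 3.48 in control. The ratio of Id1 to Id3 was 1.66, 1.25 and 1.35 in the OGE libraries, 0.645, 0.524 and 0.522 in the OGP libraries and 0.451, 0.378 and 0.430 in the control libraries. By FPKM, Id1 was thus the leading ID transcript only in vesicle-treated cells, in all 3 of their libraries, and Id3 led in the other 6. Which gene leads in OGE depends on the gene lengths that FPKM divides by, 1160 bases for Id1 and 1791 for Id3. In reads, Id3 stood above Id1 over the OGE libraries, at 1005 against 920, though below it in OGE replicate 1, at 310 against 334. The order of the groups in the ratio does not depend on these lengths. A ratio within a library shows unequal change and not which of the pair changed.

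**Figure D2:**
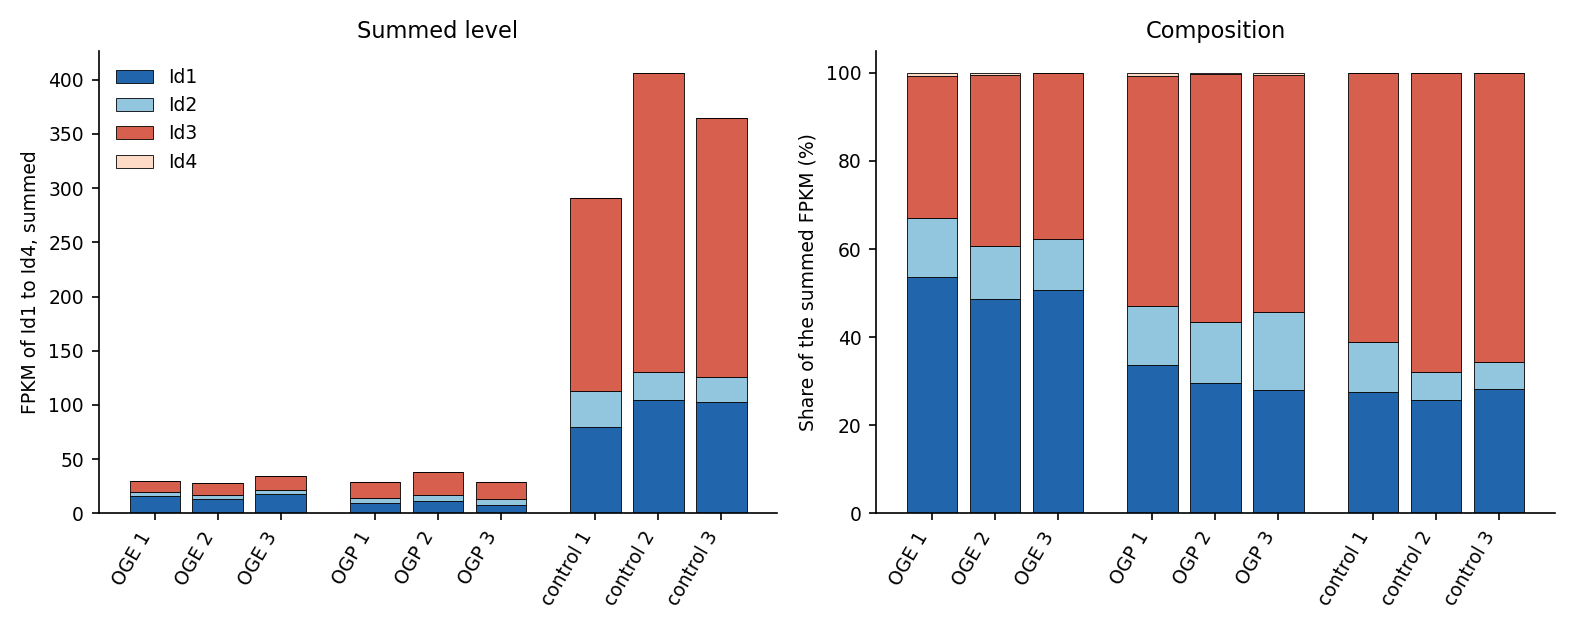
Left, FPKM of Id1 to Id4 stacked for each library (OGE, OGP, control). Right, the share of each gene in that sum in percent. The sum is 28.1 to 38.3 FPKM in the OGE and OGP libraries and at least 290.9 FPKM in the control libraries, and Id1 takes the largest share only in the OGE libraries.

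Of the inhibitory SMADs, Smad6 was lower in both deprived groups, whereas Smad7 overlapped between groups. Smad6 (ENSMUSG00000036867, chr9:63953076-64022059), whose product competes with receptor-activated SMADs mainly in BMP signalling, had 5.42, 4.42 and 4.68 FPKM in OGE, 6.79, 6.42 and 6.19 FPKM in OGP and 10.2, 15.02 and 16.7 FPKM in control. The 3 groups did not overlap, and OGE was the lowest. The log2 fold change of Smad6 was -1.03 (SE 0.16) in OGP against control and -0.39 (SE 0.16) in OGE against OGP. Smad7 (ENSMUSG00000025880, chr18:75367529-75395935), whose product blocks TGF-beta and activin receptors as well, had 4.87, 4.21 and 5.64 FPKM in OGE, 4.21, 3.83 and 3.78 FPKM in OGP and 4.05, 6.74 and 6.32 FPKM in control. Its low control value is that of control replicate 1. The log2 fold change of Smad7 in OGP against control was -0.45 (SE 0.17) with that library and -0.66 without it, which passed the thresholds given below. The ratio of Smad6 to Smad7 was 0.998 ± 0.149 in OGE, 1.64 ± 0.0307 in OGP and 2.46 ± 0.210 in control (SD, n = 3 each), and the groups did not overlap in it.

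Smad9 (ENSMUSG00000027796, chr3:54755582-54801257), which encodes a receptor-regulated SMAD of the BMP branch and is itself known as a target of the pathway, had 0.898, 1.32 and 1.13 FPKM in OGE, 0.602, 0.569 and 0.675 FPKM in OGP and 6.19, 5.28 and 5.41 FPKM in control. All 3 groups were apart, with OGP the lowest. These levels rest on 86 to 120 reads in each OGE library, 50 to 64 in each OGP library and 481 to 580 in each control library. The control mean was 9.14 times the OGP mean, while the fitted log2 fold change of Smad9 in OGP against control was -2.46 (SE 0.12), or 5.49-fold lower, since 0.5 is added to a level near it. With voom on the recovered reads that log2 fold change was -3.17. In OGE against OGP the log2 fold change of Smad9 was 0.53 (SE 0.12), just under the fold threshold, and 0.84 with voom. The pseudoreceptor gene Bambi (ENSMUSG00000024232, chr18:3507957-3516404) was barely detected, with 0.0667, 0.0586 and 0.115 FPKM in OGE, 0.160, 0.206 and 0.293 FPKM in OGP and 0.125, 0.152 and 0.128 FPKM in control. It rests on 20 reads over the OGE libraries, 57 over the OGP libraries and 36 over the control libraries, and it was the only one of the 10 genes that stood higher in every OGP library than in any control library.

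The ligand gene had a different order. Bmp4 (ENSMUSG00000021835, chr14:46383520-46390669) had 4.54, 4.49 and 3.73 FPKM in OGE, 12.1, 13.4 and 10.9 FPKM in OGP and 14.5, 17.3 and 15.03 FPKM in control. OGP was only a little below control, without overlap, and OGE was far below both. The means were 4.25 ± 0.456 FPKM in OGE, 12.1 ± 1.27 in OGP and 15.6 ± 1.501 in control, so that the OGP mean was 2.85 times the OGE mean. The log2 fold change of Bmp4 was -0.35 (SE 0.11) in OGP against control, -1.41 (SE 0.11) in OGE against OGP and -1.76 (SE 0.11) in OGE against control. The antisense gene Gm15222 overlaps Bmp4 over 1764 bases and was listed at no more than 1.42 FPKM, and reads of the pair cannot be told apart without strand. Bmpr1a (ENSMUSG00000021796, chr14:34410734-34503341), which encodes the type I receptor that binds BMP4, had 26.0, 26.8 and 21.5 FPKM in OGE, 21.5, 25.3 and 23.5 FPKM in OGP and 29.9, 18.8 and 22.4 FPKM in control. The groups overlapped, and its fitted log2 fold changes were 0.01 (SE 0.16) in OGP against control and 0.07 (SE 0.16) in OGE against OGP. The ratio of Bmp4 to Bmpr1a was 0.172 ± 0.00397 in OGE, 0.517 ± 0.0506 in OGP and 0.692 ± 0.219 in control.

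Ordered by mean level, OGE cells had Bmpr1a, Id1 and Id3 first, without overlap between their libraries, and then Smad7, Smad6, Bmp4 and Id2 as a run in which each overlapped the next. Smad9 followed by itself. In OGP cells Bmpr1a came first and overlapped Id3, Bmp4 followed and overlapped Id1, and Smad6, Id2, Smad7 and Smad9 came next, with Id2 and Smad7 overlapping. Id4 and Bambi were the last of the order in OGE and in OGP, and overlapped in both. In control cells the order was Id3, Id1, Id2, Bmpr1a, Bmp4, Smad6, Smad7, Smad9, Id4 and Bambi, with overlap between Id2 and Bmpr1a, between Bmp4 and Smad6 and between Smad7 and Smad9.

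To set the members beside the rest of the transcriptome, limma was fitted to the 13245 genes that averaged 0.5 FPKM or more, and a gene passed if its Benjamini-Hochberg adjusted p was at most 0.05 and its fold at least 1.5. Of the members 8 entered the fit, all but Id4 and Bambi. In OGP against control 5 of the 8 passed, all lower (Id1, Id2, Id3, Smad6 and Smad9), where 12.1% of all genes passed, 6.38% higher and 5.74% lower. In OGE against OGP 3 of 8 passed, Id1 higher and Id3 and Bmp4 lower, where 8.12% of all genes passed, 3.39% higher and 4.73% lower. In OGE against control 6 of 8 passed, all lower (the 5 above and Bmp4), where 11.5% of all genes passed, 5.14% higher and 6.33% lower. The median log2 fold change of the 8 genes was -1.71 in OGP against control, beside 0.01 over all genes, -0.11 in OGE against OGP, beside 0.00386, and -1.84 in OGE against control, beside -0.00342. These counts follow from how the members were chosen, and nothing is read from them. The first and the last comparison share the control libraries, the first and the second share the OGP libraries, and the second and the last share the OGE libraries.

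The groups did not overlap for 6 of the 8 fitted members in OGP against control, beside 42.9% of all genes tested, for 5 of 8 in OGE against OGP, beside 45.4%, and for 6 of 8 in OGE against control, beside 38.2%. Over all 10 members, OGP lay wholly below control for 7, wholly above for Bambi and overlapped for Smad7 and Bmpr1a. OGE lay wholly above OGP for Id1 and Smad9, wholly below for Id3, Smad6, Bmp4 and Bambi, and overlapped for the other 4. Again as a description of values the choice rests on, Bmp4 in OGE against OGP passed in all 9 fits that left out 1 library, at -1.48 to -1.32. Id1 passed in 7 of them and missed the fold threshold without OGP replicate 3 (0.55) or OGE replicate 3 (0.58). Id3 passed in only 2 of 9, those without control replicate 1 or 2, and lost its call without control replicate 3 or any 1 of the OGP or OGE libraries, at -0.72 to -0.46. It also lost its call with no filter on low levels. Smad9, at 0.44 to 0.63, passed without OGE replicate 1. Without control replicate 1 all members that had passed in OGP or OGE against control still passed.

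**Figure D3:**
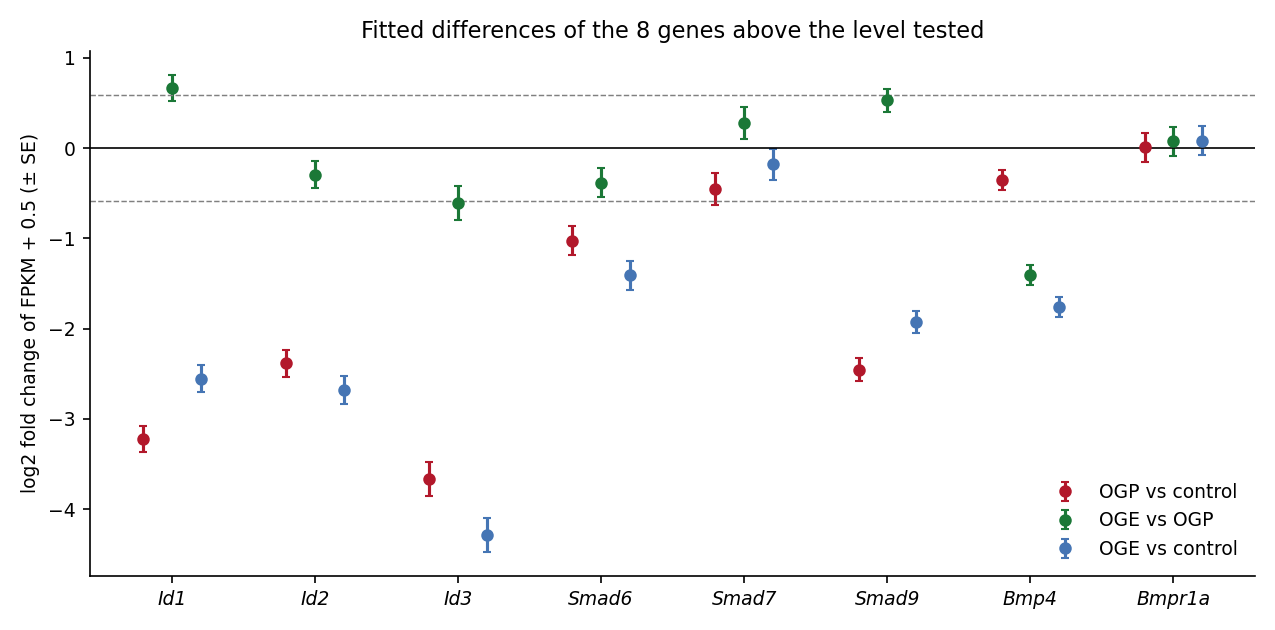
Fitted log2 fold change of FPKM + 0.5, with its SE as bars, of the 8 genes above the minimum level in OGP against control, OGE against OGP and OGE against control, with dashed lines at a fold of 1.5 either way. Id1, Id2, Id3 and Smad9 lie lowest in both comparisons with control, and Bmp4 is the only gene whose OGE against OGP value lies below -1.

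The protein-coding genes most like Id1 and Id3 over the 9 libraries were sought by the root mean square difference of their log2 levels, each centred on its own control mean. Nearest to Id1 were the cytokine gene Il33 (0.349 log2 units), Sprr1a (0.371), the acute-phase gene Orm1 (0.379), the iron-carrier gene Lcn2 (0.404) and Ankrd55 (0.480). Il33 averaged 5.31 FPKM in OGE, 4.40 in OGP and 38.0 in control. The members nearest to Id1 were Id2 (0.557) and Smad9 (0.627), and Id3 was farther off, at 1.04. For Id3 the nearest genes were Rprm (1.00), Il33 (1.05), the sphingosine-1-phosphate receptor gene S1pr1 (1.07), Rasl11a (1.09) and Lcn2 (1.13), with Id1 at 1.04 among the members. Id3 thus had no protein-coding gene as close to it as Id1 had. This measure grows with the size of the change from control, which for Id3 was among the largest of all genes tested, so no distinct pattern is read from it. The 9 libraries are 3 groups, so this likeness is a description.

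Other genes of the pathway were taken as 6 lists of 71 genes that hold no member, of which 42 entered the fit. They were drawn up with earlier results of these data known. The adjusted p-values printed below for their genes thus describe these libraries and are no independent support for a pattern in the pathway. In OGP against control 2 of the 42 were higher and 8 lower, in OGE against OGP 8 were higher and 3 lower, and in OGE against control 4 were higher and 7 lower, beside the shares of all genes given above. In OGP against control these were 5 target genes, 4 secreted antagonists or modulators and 1 ligand gene. In OGE against OGP they were 5 antagonists or modulators, 3 receptors or co-receptors, 2 SMAD regulators and 1 target gene.

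Most of the other target genes that entered the fit were low in the same groups as the ID genes. Of 9 listed, 5 entered the fit and were lower in OGP than in control. Msx2 was at 0 in all libraries, and Hamp and Dlx3 averaged at most 0.129 FPKM in any group. Hey1 was under the minimum level too, at 0.0478 FPKM in OGE, 0.0695 in OGP and 0.737 in control. Dlx5 reached the minimum level only through its control libraries, so its call, which the counts above include, is given no weight. Because the list was drawn up with earlier results of these data known, the other target genes are a description too, also where an adjusted p is printed. Atoh8, which encodes a basic helix-loop-helix factor, had 7.58, 6.88 and 7.15 FPKM in OGE, 7.74, 8.79 and 7.23 FPKM in OGP and 29.4, 46.2 and 42.3 FPKM in control. The OGE and OGP libraries overlapped, far below control, and the log2 fold change of Atoh8 was -2.22 (SE 0.15) in OGP against control (limma, adjusted p = 3.05e-05) and -0.13 in OGE against OGP (adjusted p = 0.611). The homeobox gene Msx1 had 5.85, 7.47 and 5.64 FPKM in OGE, 5.51, 6.31 and 5.65 FPKM in OGP and 16.5, 22.1 and 21.6 FPKM in control, and fell by 1.69 on the log2 scale in OGP (adjusted p = 6.58e-05). The homeobox gene Dlx5 was at 0.165 ± 0.152 FPKM in OGE, 0.298 ± 0.0718 in OGP and 1.77 ± 0.168 in control, and no test is given for it. Its relative Dlx2, at 0.978 ± 0.102 FPKM in OGP and 2.76 ± 0.426 in control, fell by 1.14 (adjusted p = 6.29e-04). In OGE against control these 3 tested genes fell as well, at -2.34 for Atoh8, -1.59 for Msx1 and -0.86 for Dlx2. The fitted value of Dlx5 there was -1.79, but -3.63 to -1.26 over the alternatives, since its level is near the number added. None of the 4 passed in OGE against OGP.

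Runx2, the osteoblast master regulator, had another order of groups. It had 5.75, 5.74 and 4.98 FPKM in OGE, 3.03, 2.74 and 2.59 FPKM in OGP and 4.66, 4.60 and 4.27 FPKM in control. It was lowest in OGP and, in all libraries, highest in OGE. It fell by 0.61 in OGP against control (adjusted p = 0.00135) and was higher by 0.87 in OGE against OGP (adjusted p = 2.29e-04), and it did not pass in OGE against control (0.26, adjusted p = 0.0682). The fall in OGP missed the fold threshold with a pseudocount of 1 (-0.54) and without OGP replicate 3 (-0.57).

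Secreted antagonists and modulators moved in both directions. Of 13 in the fit, 1 was higher and 3 lower in OGP against control, and 2 were higher and 3 lower in OGE against OGP, and 2 were higher and 2 lower in OGE against control. Chrdl1, which encodes a chordin-like protein that binds BMP4, had 6.89, 7.72 and 5.11 FPKM in OGE, 21.8, 26.7 and 25.1 FPKM in OGP and 26.2, 17.1 and 16.5 FPKM in control. OGP and control overlapped only through control replicate 1, and the other control libraries lay below all OGP libraries. Chrdl1 passed in OGP against control under none of the 20 alternatives (0.20 to 0.53). OGE was far below both groups, as it was for Bmp4. Its log2 fold change was -1.83 (SE 0.19) in OGE against OGP (limma, adjusted p = 2.42e-04) and -1.51 in OGE against control (adjusted p = 5.62e-04). Chordin itself, from Chrd, was singled out after its values were seen, so no test is given for it, though the counts above include its call. It was low, at 0.435 ± 0.0511 FPKM in OGE, 1.10 ± 0.0540 in OGP and 0.827 ± 0.172 in control. The log2 fold change of Chrd was -0.77 in OGE against OGP and -0.50 in OGE against control, the latter under the fold threshold.

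Crim1, which encodes a membrane protein that binds BMPs, was high in OGP alone, with 10.3, 10.4 and 9.60 FPKM in OGE, 21.1, 18.5 and 19.0 FPKM in OGP and 10.8, 11.8 and 10.6 FPKM in control. It rose by 0.79 on the log2 scale in OGP against control (adjusted p = 1.80e-04) and fell by 0.92 in OGE against OGP (adjusted p = 7.38e-05). Fstl3, a follistatin-like inhibitor of activin, showed the opposite, with 2.93, 2.39 and 2.69 FPKM in OGE, 1.38, 1.17 and 1.66 FPKM in OGP and 2.60, 2.77 and 2.53 FPKM in control. It fell by 0.73 in OGP against control (adjusted p = 0.00229) and was higher by 0.74 in OGE against OGP (adjusted p = 0.00285). The OGE and control libraries of Fstl3 overlapped, with a log2 fold change of 0.01 in OGE against control (adjusted p = 0.947).

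Fst, which encodes follistatin, an inhibitor of activins and some BMPs, had 1.86, 2.21 and 1.59 FPKM in OGE, 1.00, 1.29 and 1.41 FPKM in OGP and 5.54, 5.30 and 5.02 FPKM in control, and fell by 1.75 in OGP (adjusted p = 4.14e-05) and by 1.29 in OGE (adjusted p = 1.42e-04) against control. Bmper, a modulator of BMP signalling in vessels, was at 6.24 ± 0.212 FPKM in OGE, 4.41 ± 0.146 in OGP and 8.96 ± 0.850 in control. It fell by 0.94 in OGP against control (adjusted p = 9.08e-05). In OGE against control it fell by 0.49 (adjusted p = 0.00272), which missed only the fold threshold. Bmp1, a protease that cleaves chordin and procollagens and is no BMP ligand despite its name, was at 17.6 ± 1.72 FPKM in OGE, 9.92 ± 0.768 in OGP and 9.49 ± 0.731 in control, and was higher by 0.79 in OGE against OGP (adjusted p = 6.26e-04). Its relative Tll1 was higher by 0.72 in OGE against control (adjusted p = 0.00651), at 1.06 ± 0.0463 FPKM in OGE and 0.453 ± 0.125 in control, but missed the fold threshold with a pseudocount of 1 (0.51) and was 1.27 with voom. In OGE against OGP, Fst (0.46, adjusted p = 0.0340), Bmper (0.46, 0.00512) and Tll1 (0.47, 0.0456) missed only the fold threshold. Fst and Tll1 passed there with voom.

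Among 8 receptors and co-receptors in the fit, none passed in OGP against control with limma, with 2 at an unadjusted p under 0.05 and none with voom. In OGE against control none passed either, with 2 at an unadjusted p under 0.05 and none with voom. Acvr1 missed only the fold threshold in OGP against control (-0.29, adjusted p = 0.0304). Both Acvr1 (0.36, adjusted p = 0.0127) and Neo1 (0.46, adjusted p = 0.0118) missed only that threshold in OGE against control. In OGE against OGP 3 were higher. The type I receptor gene Acvr1 had 11.03, 12.1 and 11.02 FPKM in OGE, 7.37, 6.43 and 7.39 FPKM in OGP and 9.37, 8.35 and 8.49 FPKM in control, with a log2 fold change of 0.65 in OGE against OGP (adjusted p = 8.46e-04). Neo1, which encodes the co-receptor neogenin, was at 11.1 ± 0.366 FPKM in OGE and 6.90 ± 1.10 in OGP (0.65, adjusted p = 0.00274), and missed the fold threshold without OGP replicate 2 (0.57). The type II receptor gene Bmpr2 was at 7.26 ± 1.44 FPKM in OGE and 4.54 ± 0.0537 in OGP (0.61, adjusted p = 0.0466). That call was lost under 10 of 20 alternatives, among them the fits without any 1 of the OGP libraries, without OGE replicate 1 or 2 and without control replicate 3, where its value was 0.47 to 0.61.

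Of 9 SMADs and their regulators in the fit, none passed in OGP against control with limma, with 7 at an unadjusted p under 0.05 and none with voom. Smad1 (-0.45, adjusted p = 0.00513), Smurf2 (-0.43, 0.0196), Skil (0.51, 0.0201), Smurf1 (-0.36, 0.0285) and Ski (-0.26, 0.0390) missed only the fold threshold there. Smad1 (0.58, adjusted p = 0.00191), Smurf1 (0.51, 0.00871), Smad4 (0.32, 0.0122) and Smad5 (0.33, 0.0430) missed only that threshold in OGE against OGP. In OGE against OGP the corepressor genes Skil and Ski, whose products bind SMADs and hold their targets down, were higher. Skil had 12.9, 14.7 and 12.03 FPKM in OGE, 7.95, 7.42 and 7.87 FPKM in OGP and 6.55, 4.28 and 5.23 FPKM in control, and its log2 fold change was 0.73 in OGE against OGP (adjusted p = 0.00599) and 1.24 in OGE against control (adjusted p = 2.29e-04). Without control replicate 1 it also passed in OGP against control, at 0.66. Ski was at 33.6 ± 2.04 FPKM in OGE and 21.6 ± 1.84 in OGP (0.63, adjusted p = 9.20e-04), and missed the fold threshold without OGP replicate 3 or OGE replicate 2 (0.58 in each). Smad4, the partner of all receptor-regulated SMADs, was at 20.5 ± 0.790 FPKM in OGE, 16.3 ± 0.731 in OGP and 18.5 ± 0.785 in control and passed in no comparison.

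Of 13 other BMP and GDF ligand genes only Bmp6 and Gdf5 entered the fit. Bmp6 had 2.39, 2.06 and 2.25 FPKM in OGE, 3.17, 2.77 and 2.49 FPKM in OGP and 0.969, 1.28 and 1.24 FPKM in control, so that it was above control in every library of both deprived groups, where Bmp4 was below it. It rose by 0.99 in OGP against control (limma, adjusted p = 5.17e-04) and by 0.72 in OGE against control (adjusted p = 0.00272), which missed the fold threshold with a pseudocount of 1 (0.58). In OGE against OGP neither passed with limma, with 1 at an unadjusted p under 0.05 and none with voom.

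Of 5 E proteins and other helix-loop-helix factors in the fit, none passed with limma in OGP against control, with 4 at an unadjusted p under 0.05 and none with voom, and none in OGE against OGP, with 2 at such a p and 1 lower with voom. Twist1 missed only the fold threshold in OGE against OGP (-0.38, adjusted p = 0.0451). Of the E proteins, the partners that ID proteins hold, Tcf3 was the most abundant, at 35.1 ± 2.53 FPKM in OGE, 33.6 ± 3.08 in OGP and 44.5 ± 8.43 in control. It passed in no comparison (-0.39, adjusted p = 0.0620, in OGP against control). Control had 34.8, 49.1 and 49.8 FPKM of Tcf3, and only replicate 1 overlapped the OGP libraries. Over the 20 alternatives its value in OGP against control was -0.55 to -0.30, with adjusted p of 0.00163 to 0.192, and never reached the fold threshold. The summed ID level was 31.0 FPKM beside 35.1 FPKM of Tcf3 in OGE, 32.3 beside 33.6 FPKM in OGP and 354 beside 44.5 FPKM in control. Tcf3 alone is not the E protein total. The E protein genes Tcf12 and Tcf4 were expressed too, below Tcf3 in every group, and are left out of these pairs of values. The pairs are RNA levels, and the balance of ID and E proteins was not tested. Twist1, a basic helix-loop-helix factor of mesenchymal cells, was at 21.9 ± 0.708 FPKM in OGE, 28.7 ± 1.29 in OGP and 36.0 ± 6.07 in control. It fell by 0.69 in OGE against control (adjusted p = 0.00251). In OGP against control the value of Twist1 was -0.31 (adjusted p = 0.0714), and only control replicate 1 overlapped OGP. Over the alternatives it was -0.45 to -0.21 there, with adjusted p of 0.00176 to 0.198, under the fold threshold in each.

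**Figure D4:**
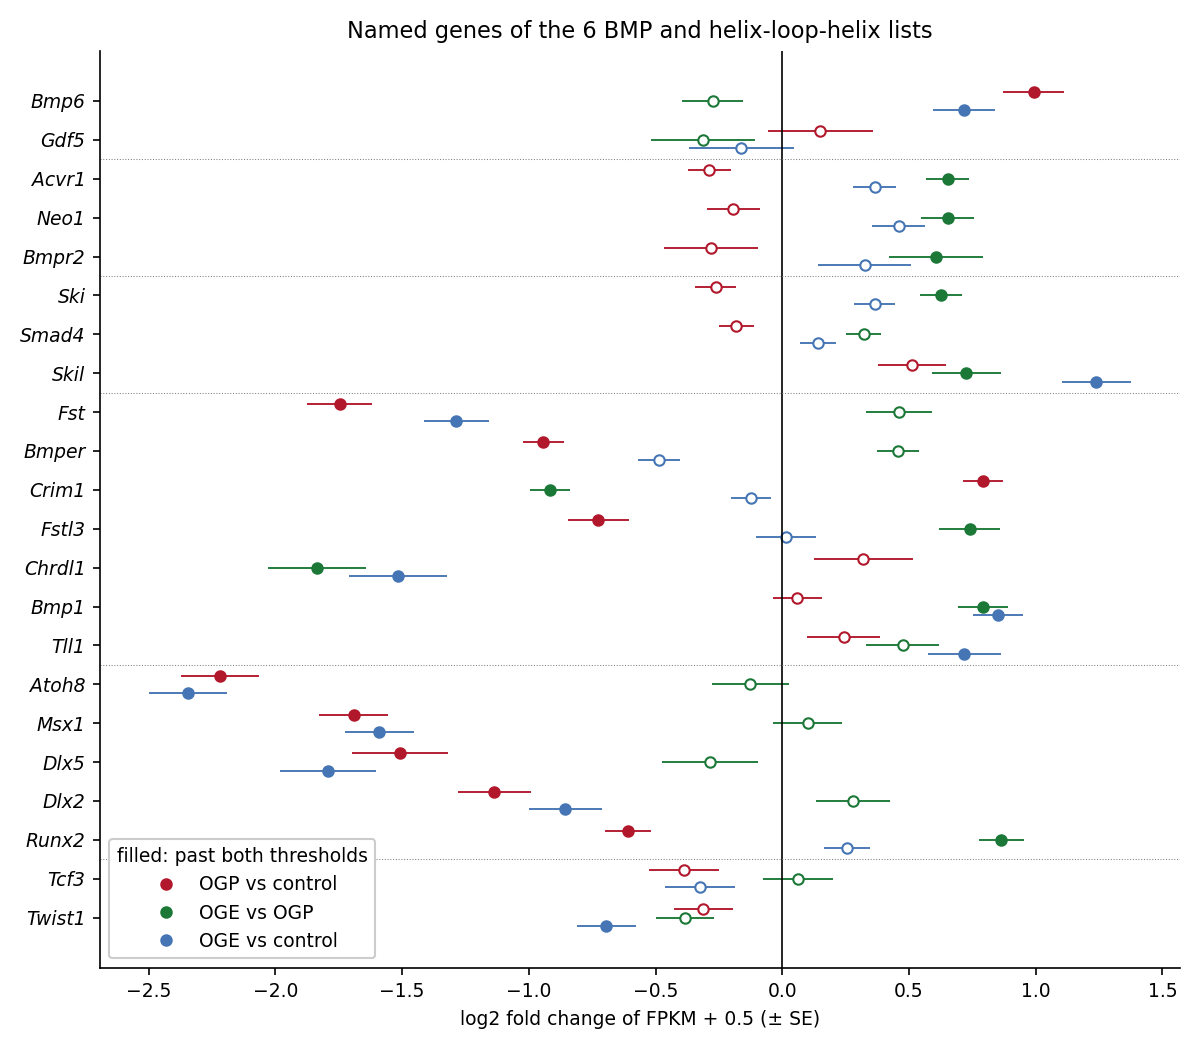
Fitted log2 fold change of FPKM + 0.5, with its SE as bars, of the 22 named pathway genes that are not among the 10, in OGP against control, OGE against OGP and OGE against control, with lists divided by dotted lines and filled points past both thresholds. Atoh8, Msx1, Dlx5 and Dlx2 lie well below 0 in both comparisons with control and near 0 in OGE against OGP, and Chrdl1 is the lowest gene in OGE against OGP. Dlx5 reached the minimum level only through its control libraries.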

How the data were processed

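The submitters' processing notes and the study's methods name HISAT2 2.0.5 for alignment to mm10 and featureCounts for reads per gene. The deposited values are FPKM that the authors made from these reads, and no source used here names the tool. The study's methods give TRIZOL and the labels an RNeasy kit for the RNA, and mRNA was taken with poly-T beads. Each library had 1 step of which FPKM multiplied by gene length was a whole number of times, within 0.1 for all values above 0, and this gave the reads.

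Genes averaging 0.5 FPKM or more were fitted with limma 3.58.1 (R 4.3.3, trended prior) to log2(FPKM + 0.5), with all 9 libraries and 3 groups in 1 model and Benjamini-Hochberg adjustment over 13245 genes. The call thresholds, 0.05 and 1.5-fold, are those of the study, whose own count test was not run here. Limma with voom on the recovered reads was an alternative. Genes were named by a rule: all 10 members, the called genes of each list and comparison (at most 4 by smallest p), the 2 most abundant of a list without a call, and the 5 genes nearest to Id1 and to Id3. Chrd and the cell type markers were named outside it, Chrd after its values were seen. Members and lists were chosen with earlier results of these data known. The fit was tested on simulated data. Alternatives were other pseudocounts, filters and scalings, a robust prior, a replicate block, voom on the reads, 6 libraries at a time, no fold threshold and leaving out each library. Leaving out control replicate 1 together with OGE replicate 3 was tried after the data had been seen.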

Additional observations from a re-analysis of the deposited data

How the results depend on the processing

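Without the fold threshold, 3941 genes were called in OGP against control (1828 higher and 2113 lower, against 1605 in all with it), 2750 in OGE against OGP (1400 higher and 1350 lower, against 1075) and 3287 in OGE against control (1550 higher and 1737 lower, against 1519). Calls among the 42 pathway genes were then 17, 19 and 18, against 10, 11 and 11 with it. When each library was left out in turn, the calls numbered 1340 to 1912, 889 to 1181 and 1342 to 2017 genes in these comparisons, and the members called 5 to 6, 1 to 3 and 6 in every fit. No called value of a named gene changed direction. With the fold threshold kept, 22 of 1311 calls of named pathway genes changed under the alternatives, 10 of them for Bmpr2 in OGE against OGP, and 16 of 480 calls of members, 8 for Id3, 3 for Id1 and 3 for Smad9 in OGE against OGP and 2 for Smad7 in OGP against control, and 12 values of members moved by more than their SD. Smad9 in OGP against control was -3.00 with a pseudocount of 0.1 and -2.03 with 1, because its OGP level is near the number added.

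Deviations of samples with the same replicate number from their group means had r of -0.18 to 0.32, over 0.1 in 2 of 9 pairs. With 3 libraries a group this cannot exclude pairing by replicate number, and the libraries were treated as unpaired in the main fit. With a replicate block the calls were 1581, 1043 and 1484 genes, 5, 3 and 6 members and 10, 11 and 11 pathway genes. Depth limits Id4 and Bambi, whose group sums are 20 to 102 reads, and with 3 libraries a group a p that misses the threshold does not show that levels were equal.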
